A study of Mus musculus with 4 samples.

Results

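The genes described here are 49 genes of DNA repair and of the Fanconi anaemia pathway, chosen by name, of which 45 had a probe annotated to them alone. They were followed over the 4 arrays of the series among 22180 genes measured in the same way. Ddb2, Fanca and Rad54b lay on probes annotated to more than 1 gene, and together with Xrcc2 they were not analysed here. Each array held RNA of regulatory CD4 T cells sorted from mice that had received NP-OVA, a hapten coupled to ovalbumin, in complete Freund's adjuvant (CFA) 7 days earlier.

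All mice carried FoxP3YFP-Cre, an allele that makes a fluorescent reporter and Cre recombinase in cells expressing Foxp3, the transcription factor of regulatory T cells. Control mice (WT) carried this allele alone. Knockout mice (KO, Prdm1fl/flFoxP3YFP-Cre) had in addition both alleles of Prdm1 floxed, so that Cre acts on the gene of the repressor Blimp-1 in cells that express Foxp3. Follicular regulatory (TFR) cells were sorted as YFP+ CD4+ cells positive for PD1 and CXCR5, and non-TFR cells as YFP+ CD4+ cells lacking CXCR5. A PD1 condition is stated for the TFR gate alone, so what goes with either surface protein in a population difference cannot be told apart. The 4 groups, control TFR, knockout TFR, control non-TFR and knockout non-TFR, had 1 Affymetrix Mouse Gene 2.0 ST array each. No difference below has a replicate, an error or a test, so that precision is limited by having single arrays. The sources used here give neither age and sex nor how many mice an array represents.

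Homologous recombination copies a broken DNA from its sister chromatid, which exists only after replication, and the Fanconi anaemia proteins clear crosslinks that stall replication forks. Transcripts of many of these genes are known to rise as cells enter the DNA synthesis (S) phase, whereas nucleotide excision repair and end joining serve cells at all stages. In lymphocytes some of the same proteins also act on antigen receptor genes: end joining completes V(D)J recombination, and Ung acts in class switching of B cells. The measured genes were classed gene by gene from general knowledge and not by pathway, 15 as proliferation-linked and 30 as constitutive. Thus Rad50, Mre11a, Nbn, Fancc and Fancm were classed as constitutive, and Msh6 and Ung as proliferation-linked. The classes were set with earlier results of these data known, so the contrast between them is a description and not an independent test.

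Levels are given as log2 array signal after quantile normalization, which makes the distributions of the 4 arrays equal. Levels of different genes are not comparable on this array, so differences were taken only within a gene. The limit given next and the mean levels of marker lists do put genes side by side, and are rough for that reason. The median gene of the array had a mean level of 5.91. It serves as a limit: no fold is given where the lower value lay below it, because the table has no detection calls, and a difference from such a value may be compressed. Of the 45 genes 39 had a mean above this limit, and all 45 were counted. The targeted gene Prdm1 was at 8.21 in control and 7.32 in knockout TFR cells, and at 7.80 and 7.59 in non-TFR cells. The sources used here do not say which exons the probes cover, so these values do not check the deletion. Foxp3 lay between 11.87 and 12.45 on all arrays and Cd4 between 11.02 and 11.33. Foxp3 was lowest in knockout TFR cells, with a difference of -0.49 from control TFR cells. Of 8 sort and Treg markers, 5 were higher and 3 lower in TFR cells in each genotype. Il2ra was the lowest of them, at -0.49 in control and -1.23 in knockout mice, and it differed by -0.67 between knockout and control TFR cells. Of the gate genes, Cxcr5 was higher in TFR cells of control and knockout mice by 1.46 and 1.49, and the PD1 gene Pdcd1 by 2.41 and 1.72.

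In control mice the proliferation-linked genes were mostly far higher in TFR cells, and the constitutive genes were mostly closer to level. The differences formed a continuous range with no clear gap between the classes, which overlapped. Of the 45 genes, 10 had a TFR value at least 2-fold above the non-TFR value and 0 the reverse, beside 2.69% and 1.18% of all genes. Among these 10, the control non-TFR values of Brip1, Brca1, Rad54l, Fancd2, Fanci and Eme1 lay below the limit. All 10 belonged to the 15 proliferation-linked genes, whose median difference was 1.48 with every gene higher. The median was 0.97 with borderline genes counted in that class, and among genes with a mean above the 75th percentile of all genes (8.05), where Msh6 alone of the class is left, it was 0.33 and no member was 2-fold apart. The 30 constitutive genes had a median of 0.28, 22 of them being higher and 8 lower, beside 51.7% of all genes higher and 48.3% lower. The median over all 45 genes was 0.45 and that over all genes of the array 0.01. Of the 15 proliferation-linked genes 11 lay above the highest constitutive gene, Rad51c at 0.90.

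**Figure D1:**
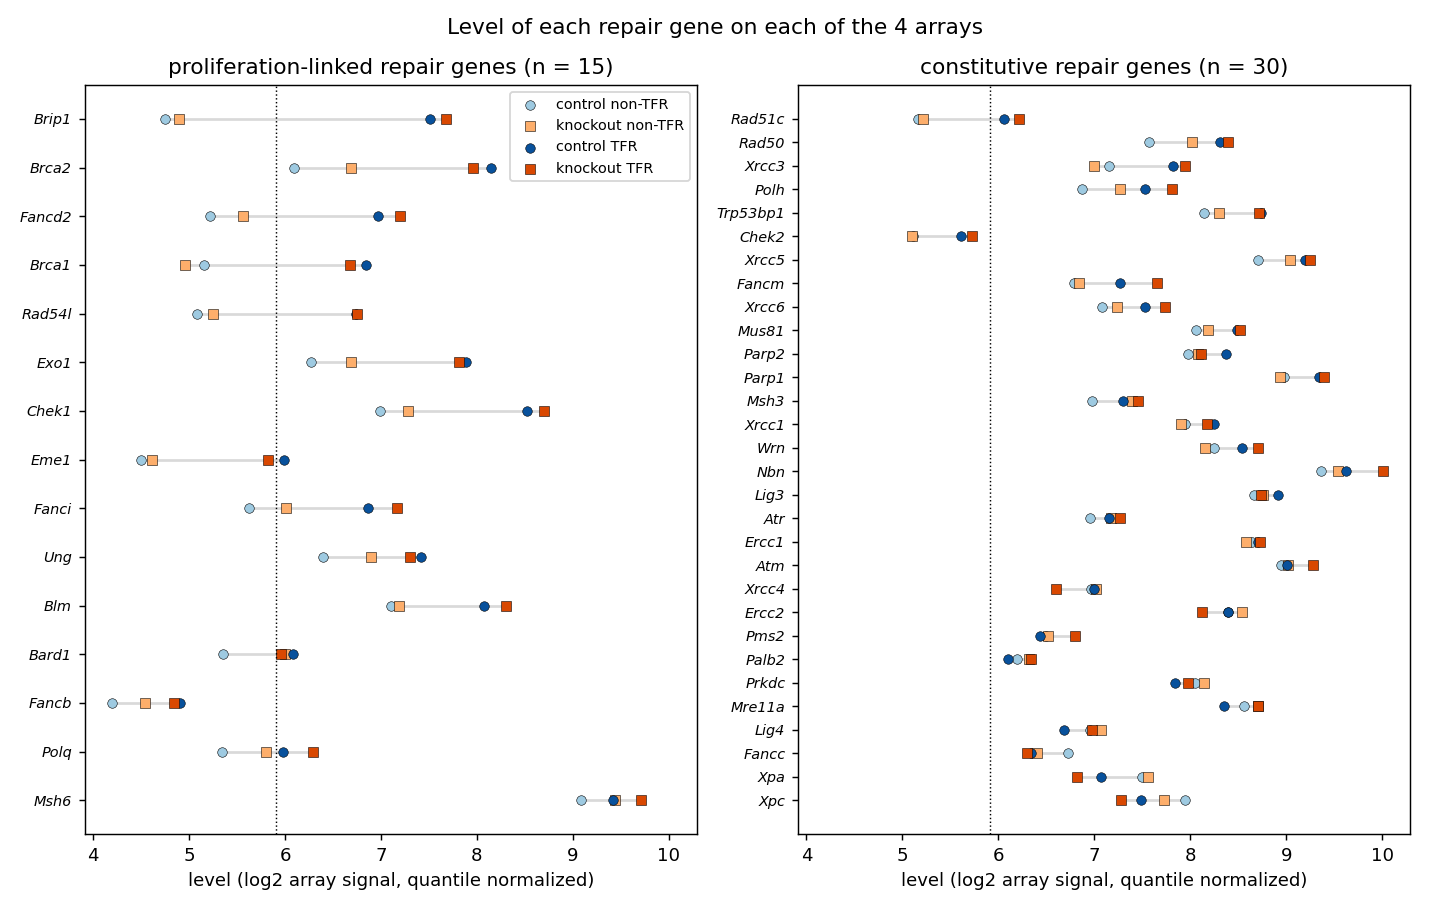
Level of each repair gene (log2 array signal, quantile normalized) on the 4 arrays, with 1 point per array, proliferation-linked genes on the left and constitutive genes on the right, ordered by the control difference between populations. The dotted line is the limit of 5.91. On the left, 13 of 15 genes have both dark (TFR) points to the right of both light (non-TFR) points. On the right 16 of 30 genes do so, beside 32.0% of all genes.

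Within the Fanconi pathway the differences ran from the highest of all members to a negative one. Brip1, the helicase also called FANCJ that binds Brca1, was at 7.51 in control TFR and 7.67 in knockout TFR cells but at 4.75 and 4.90 in the non-TFR arrays. The TFR values stood clear of the non-TFR values, which lay below the limit, and the difference was 2.76 in control and 2.77 in knockout mice. Fancd2 and Fanci encode the pair of proteins that the pathway's ubiquitin ligase modifies at a stalled fork. Fancd2 was at 6.97 and 7.20 in control and knockout TFR cells and at 5.21 and 5.56 in non-TFR cells, differences of 1.75 and 1.63. Fanci was at 6.86 and 7.17 in TFR cells and at 5.62 and 6.01 in non-TFR cells, differences of 1.24 and 1.16, the latter being 2.23-fold. For both genes the TFR arrays were above the non-TFR arrays in either genotype. Members of the core complex had smaller differences. Fancc, a member of that complex, was at 6.34 and 6.30 in TFR and 6.72 and 6.40 in non-TFR cells, differences of -0.38 and -0.10. Fancb, another core subunit, was 0.70 and 0.30 higher but lay below the limit on all 4 arrays. Fancm, the translocase that brings the complex to DNA, was 0.48 and 0.81 higher in TFR cells.

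Genes of homologous recombination ranged from 4.14-fold higher in TFR cells to slightly lower. Brca2, which loads the recombinase onto single-stranded DNA, was at 8.15 and 7.96 in TFR cells of control and knockout mice and at 6.10 and 6.69 in their non-TFR cells. It was 4.14-fold higher in TFR cells of control mice (2.05) and 2.41-fold higher in those of knockout mice (1.27). Brca1, the ubiquitin ligase that promotes recombination, was at 6.85 and 6.68 in control and knockout TFR cells and at 5.16 and 4.96 in non-TFR cells, differences of 1.69 and 1.72. Rad54l, a motor protein of strand exchange, was at 6.74 and 6.75 against 5.08 and 5.25, differences of 1.65 and 1.5. In all 3 genes both TFR arrays were above both non-TFR arrays. Rad51c, a recombinase paralogue placed with the constitutive genes, was at 6.06 and 6.22 in TFR and 5.16 and 5.21 in non-TFR cells, with differences of 0.90 and 1.00. Xrcc3, its partner, was 0.67 and 0.95 higher in TFR cells.

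Rad50, Mre11a and Nbn encode the complex that senses and trims broken ends. Their differences varied in sign and size. All lay within the middle 95% of all genes (-0.79 to 1.02 in control and -0.82 to 0.95 in knockout mice). Rad50 was 0.73 higher in control TFR cells and 0.37 higher in knockout TFR cells, Nbn was 0.26 and 0.46 higher, and Mre11a differed by -0.21 in the control and -0.001 in the knockout. Palb2, the bridge between Brca1 and Brca2, was at 6.10 and 6.34 in TFR and 6.20 and 6.32 in non-TFR cells, differences of -0.10 and 0.02. It was thus nearly level while both of its partners were more than 1 higher. Bard1, the obligate partner of Brca1, was at 6.08 and 5.96 in control and knockout TFR cells and at 5.36 and 5.99 in non-TFR cells. The control non-TFR array alone was low, so that the population difference was 0.72 in control and -0.04 in knockout mice, the latter above 0 with the values as deposited.

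Helicases and nucleases that process recombination intermediates were higher in TFR cells in all 6 cases and both genotypes. Exo1, the exonuclease of end resection and mismatch repair, was at 7.89 and 7.81 in control and knockout TFR cells and at 6.27 and 6.69 in non-TFR cells, which is 3.06-fold in control and 2.17-fold in knockout mice. Eme1, the partner of the nuclease Mus81, was at 5.99 and 5.83 in TFR and 4.50 and 4.62 in non-TFR cells, differences of 1.48 and 1.21 from values below the limit. Mus81 itself, 0.43 and 0.34 higher, had a much smaller difference than its partner. Blm, the Bloom syndrome helicase, was at 8.07 and 8.30 in TFR and 7.10 and 7.19 in non-TFR cells, 1.96-fold and 2.16-fold higher. Its relative Wrn, the Werner syndrome helicase, was at 8.54 and 8.70 against 8.25 and 8.15, differences of 0.29 and 0.55. Polq, the polymerase of microhomology-mediated joining, was 0.64 and 0.50 higher, with both non-TFR values below the limit.

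The damage kinases also ranged from a large difference to nearly none. Chek1, which restrains origin firing and entry into mitosis, was at 8.52 and 8.70 in control and knockout TFR cells and at 6.99 and 7.28 in non-TFR cells, 2.89-fold and 2.66-fold higher. Its upstream kinase Atr was 0.19 and 0.09 higher. Atm, the kinase that responds to double-strand breaks, was at 9.01 and 9.28 in control and knockout TFR cells and at 8.95 and 9.02 in non-TFR cells, so that the populations overlapped. Chek2, the effector of Atm, was 0.50 and 0.62 higher at levels below the limit on all arrays.

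Genes of non-homologous end joining had no member 2-fold apart. Trp53bp1, which protects ends from resection, was at 8.74 and 8.72 in TFR and 8.14 and 8.30 in non-TFR cells, 1.52-fold and 1.34-fold higher. Xrcc5 and Xrcc6, the Ku subunits that hold the ends, were 0.49 and 0.45 higher in control and 0.21 and 0.50 higher in knockout TFR cells. Prkdc, the kinase bound to Ku, and the ligase gene Lig4 were lower in TFR cells of both genotypes, with differences of -0.20 and -0.16 for Prkdc and of -0.28 and -0.09 for Lig4, although Lig4 in knockout mice turned positive with the values as deposited. Xrcc4, the partner of that ligase, was at 6.99 and 6.60 in control and knockout TFR cells and at 6.97 and 7.02 in non-TFR cells. The knockout TFR array alone was low for Xrcc4, and its population difference was 0.03 in control and -0.41 in knockout mice.

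Base excision and mismatch repair genes were mostly a little higher in TFR cells. Ung, which removes uracil from DNA, was at 7.42 and 7.30 in control and knockout TFR cells and at 6.39 and 6.89 in non-TFR cells, 2.04-fold and 1.33-fold higher. Lig3, the ligase of single-strand breaks, was at 8.92 and 8.74 in control and knockout TFR cells and at 8.66 and 8.75 in non-TFR cells, with no separation of the populations. Its scaffold Xrcc1 was 0.30 and 0.27 higher. Of the polymerases that mark breaks with poly(ADP-ribose), Parp1 was 0.37 and 0.45 higher and Parp2 0.39 and 0.03 higher. Msh6 and Msh3, which pair with the same partner to read small and larger mismatches, were each 0.33 higher in control TFR cells and 0.27 and 0.07 higher in knockout TFR cells. Msh6 was the proliferation-linked gene with the smallest control difference. Pms2, the endonuclease subunit of mismatch repair, was at 6.43 and 6.79 in TFR and 6.49 and 6.52 in non-TFR cells, differences of -0.07 and 0.28.

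Nucleotide excision repair held the members that were lowest in TFR relative to non-TFR cells. Xpc, which recognises helix distortion, was at 7.49 and 7.28 in control and knockout TFR cells and at 7.94 and 7.73 in non-TFR cells, 1.37-fold and 1.36-fold lower in TFR. Xpa, which verifies the lesion, was at 7.07 and 6.82 against 7.50 and 7.56, 1.35-fold and 1.67-fold lower. In both genes the TFR arrays lay below the non-TFR arrays. The nuclease subunit Ercc1 was 0.07 and 0.15 higher. Ercc2, a helicase of the repair and transcription factor TFIIH, was at 8.39 in both control populations and at 8.12 in knockout TFR and 8.53 in knockout non-TFR cells, so that its population difference was 0.01 in control and -0.41 in knockout mice. Polh, the polymerase that copies past ultraviolet damage, went the other way from Xpc and Xpa, at 7.53 and 7.81 in TFR and 6.87 and 7.27 in non-TFR cells, 1.58-fold and 1.45-fold higher. Bard1, Xpa and Xpc were singled out after their values were seen.

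**Figure D2:**
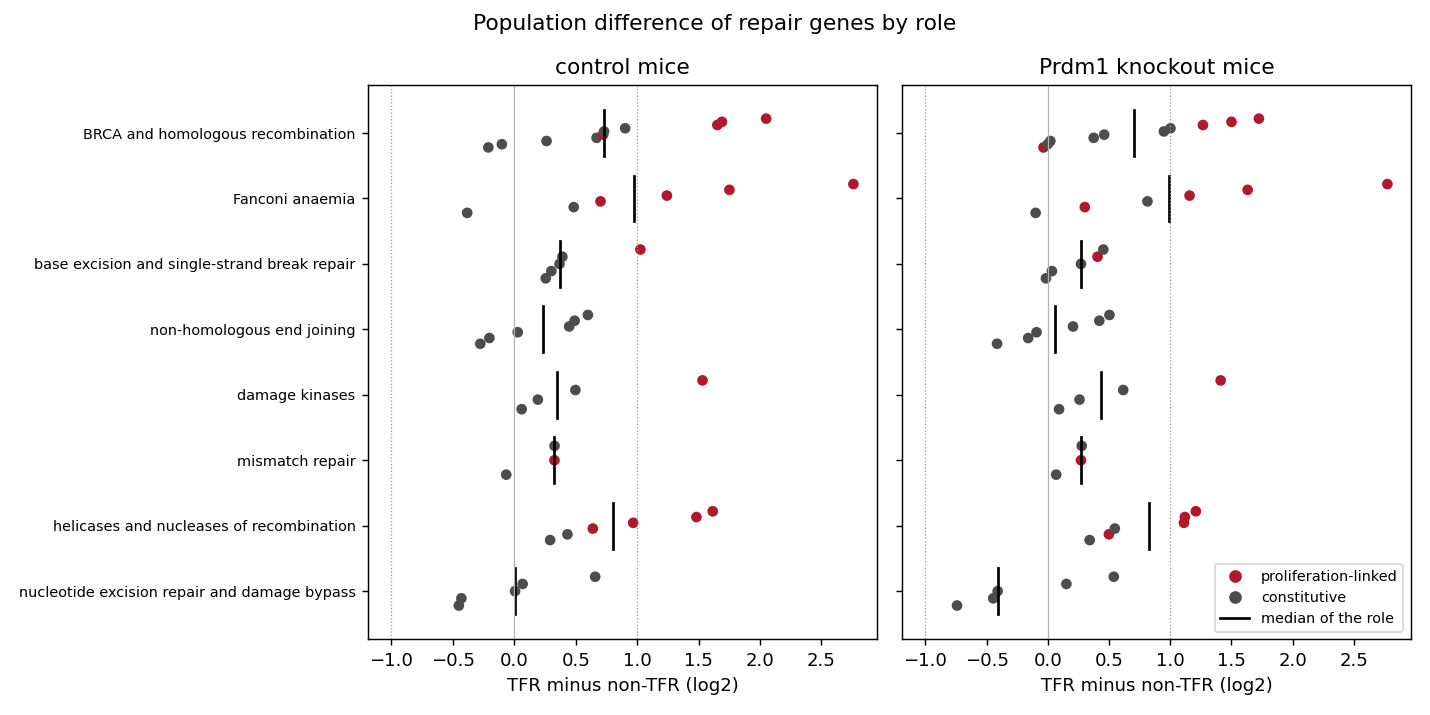
Difference between TFR and non-TFR cells (log2) of each repair gene by role, in control mice on the left and in knockout mice on the right; each point is 1 gene from 1 pair of arrays, the bars are medians of the role, and dotted lines mark 2-fold. Medians in control mice run from 0.97 for the Fanconi genes to 0.01 for nucleotide excision repair and damage bypass, and every gene beyond 2-fold in control mice is proliferation-linked.

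The same contrast in knockout mice rests on the other arrays and shares none with the control contrast. There 11 of the 45 genes were at least 2-fold higher in TFR cells and 0 at least 2-fold lower, beside 2.23% and 1.18% of all genes. They were 10 proliferation-linked genes and Rad51c. Among them the knockout non-TFR values of Brip1, Brca1, Rad54l, Fancd2, Eme1 and Rad51c lay below the limit. The proliferation-linked median was 1.16 with 14 of 15 genes higher, and the constitutive median was 0.23 with 21 higher and 9 lower, beside 50.0% of all genes in each direction. In both genotypes 9 genes were at least 2-fold higher, beside 1.44% of all genes: Brip1, Brca1, Brca2, Fancd2, Rad54l, Chek1, Exo1, Eme1 and Fanci. Ung was 2-fold apart in control mice and not in knockout mice, and Blm and Rad51c in knockout mice and not in control mice, at 0.97 and 0.90. With the values as deposited Blm (1.07) and Rad51c (1.01) were 2-fold apart in control mice too, and with 75th percentile centring Rad51c (0.95) was not so in knockout mice. Across the 45 genes the differences in both genotypes were correlated with r = 0.92 (Pearson) and rho = 0.86 (Spearman), beside 0.75 and 0.69 over all genes, as a description of genes measured on the same arrays and not of replicates. Counting levels rather than folds, 29 of 45 genes had both TFR arrays above both non-TFR arrays, beside 32.0% of all genes, and 4 had both below, beside 30.9%. The latter 4 were Xpa, Xpc, Prkdc and Fancc.

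**Figure D3:**
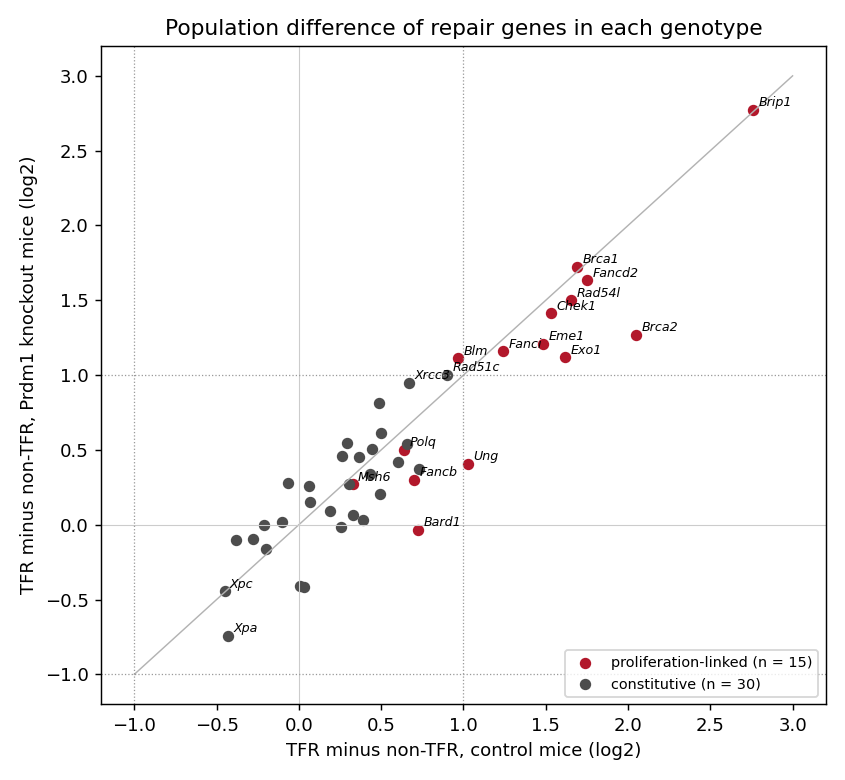
Difference between TFR and non-TFR cells (log2) of each repair gene in control mice (x) and knockout mice (y); each point is 1 gene, the diagonal marks equal differences and dotted lines 2-fold. Brip1 lies at 2.76 and 2.77 on the diagonal, and Brca2 (2.05 and 1.27), Ung (1.03 and 0.41) and Bard1 (0.72 and -0.04) lie below it.

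Markers of dividing cells moved with these genes. In a list of 29 measured mitotic and cell cycle genes the median difference was 2.49 in control and 1.83 in knockout mice, with Mki67 3.42 and 2.13 higher and Cdk1 3.61 and 2.61 higher in TFR cells. In a list of 27 genes of DNA replication and S phase the medians were 1.51 and 1.06, close to the 1.48 and 1.16 of proliferation-linked repair genes. In sorted bulk RNA, more dividing cells and more of a transcript in each cell cannot be told apart, and the part of cell division in the repair gene values was not tested. Of 17 measured targets of p53, the transcription factor that damage signalling activates, 8 were higher and 9 lower in control TFR cells, with a median of -0.02 that was 0.08 with the values as deposited and 0.004 with cyclic loess. In knockout mice that median was -0.16. In control and knockout mice the highest of these targets was Sesn2 (0.97 and 0.80) and the lowest Btg2 (-0.73 and -0.97). Cdkn1a, the cell cycle inhibitor among them, differed by -0.52 and -0.56.

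Another 85 measured repair genes, from a wider list of 95 that excludes the members, had medians of 0.21 in control and 0.23 in knockout mice. Of them 12 were at least 2-fold higher in TFR cells of control mice and 6 of knockout mice, beside 2.69% and 2.23% of all genes. In either genotype 0 were 2-fold lower, beside 1.18% of all genes in each. The replicative ligase gene Lig1 (2.03), the glycosylase gene Neil3 (1.95) and the junction resolvase gene Gen1 (1.61) had the highest control differences, and the lowest were those of Nhej1 (-0.76), an end joining factor, Rad52 (-0.71), a recombination mediator, and Fance (-0.71), a Fanconi core subunit.

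Markers of other cells that a sort could hold were mostly below the limit, with some exceptions. Of 11 measured B cell markers 7 were below it on all arrays, among them Ms4a1 and Cd79a, whereas Cd79b lay between 8.08 and 8.42, and the mean level of the list ran from 5.23 in control non-TFR to 5.70 in knockout TFR cells. Its median differences between populations were 0.02 and 0.06, although Cd22 was 2.28 and 2.22 and Pax5 0.64 and 0.92 higher in TFR cells. Of 6 measured germinal centre B cell markers 5 were below the limit on all arrays, with list means of 4.73 to 5.35 and median differences of 0.28 and 0.36, and Mybl1 among them was 1.85 and 1.29 higher in TFR cells. The same held for 9 of 10 myeloid, 5 of 5 dendritic cell and 3 of 6 CD8 T and NK cell markers, with list means between 4.91 and 5.91. Of the exceptions, the myeloid marker Cd68 was 0.50 and 1.58 higher in TFR cells, beside list medians of -0.01 and 0.13. That of -0.01 was 0.09 with the values as deposited. Cd8b1 lay between 8.73 and 9.42, with differences of -0.69 and -0.56. The NK cell marker Klrb1c was 1.08 and 0.37 higher, and Eomes, above the limit on all arrays, 0.37 and 0.17. Medians of the CD8 T and NK cell list were 0.13 and 0.20. The 1 erythroid marker measured, Klf1, was below the limit on all arrays. Their part in the differences was not tested.

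Within TFR cells the repair genes, like most genes of the array, differed little between the genotypes. Of the 45 genes 0 were 2-fold apart in either direction, beside 0.289% (knockout higher) and 0.162% (knockout lower) of all genes. With shares this small, a count of 0 does not set the repair genes apart. The proliferation-linked median was 0.01, with 8 genes higher and 7 lower in the knockout, and it was -0.001 when arrays were centred on their 75th percentile. It was 0.16 over genes above the median level and also without borderline genes, 0.11 with those genes all in the class, and 0.29 for Msh6 alone above the 75th percentile of level. The constitutive median was 0.12, with 21 higher and 9 lower, beside 52.4% of all genes higher and 47.6% lower. The differences ran from -0.39 for Xrcc4 to 0.39 for Fancm, and all lay within the middle 95% of all genes, which spanned -0.48 to 0.53. Nbn (0.38), Pms2 (0.37) and Mre11a (0.35) followed Fancm, and the lowest after Xrcc4 were Ercc2 (-0.27) and Parp2 (-0.25). The 4 damage kinases were each higher in the knockout, by 0.11 to 0.27, and 4 of 5 base excision genes were lower, with Parp1 at 0.05 as the exception. The cell cycle and S phase lists were also nearly level here, with medians of 0.08 and 0.05. Among markers of other cells Cd68 was 1.20 and Cd22 1.00 higher in knockout TFR cells, beside medians of 0.13 and 0.09 for their lists, and their part in the repair gene values was not tested.

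Within non-TFR cells the proliferation-linked genes were somewhat higher in the knockout. Here too 0 of 45 genes were 2-fold apart, beside 0.433% (knockout higher) and 0.0766% (knockout lower) of all genes, which again does not set them apart. The proliferation-linked median was 0.35, with 14 of 15 genes higher, and the constitutive median was 0.09, with 22 of 30 higher and 8 lower, beside 56.1% and 43.8% of all genes. The highest differences were those of Bard1 (0.64), Brca2 (0.59, 1.51-fold) and Ung (0.50, 1.41-fold), of which Bard1 started from a control value below the limit (5.36), and Bard1 and Brca2 lay above the middle 95% of all genes (-0.43 to 0.58). Polq (0.45), Rad50 (0.45), Exo1 (0.42) and Msh3 (0.42) came next. Brca1 was the proliferation-linked gene that was lower, at -0.20, with both non-TFR values below the limit, and Fancc was the lowest of all members at -0.33. Cell cycle genes moved with this difference: their list had a median of 0.66 with the knockout value above the control value in all 29 genes, and the S phase list had one of 0.39. The gate genes did so as well, Pdcd1 being 1.52 and Cxcr5 0.84 higher in the knockout, and the 6 germinal centre B cell markers had a median of 0.31. Cd22 was 1.06 and the NK cell marker Klrb1c 0.98 higher, each the highest of its list. The B cell list had a median of 0.09, with 7 genes higher and 4 lower. That of the CD8 T and NK cell list was -0.12, with 2 higher and 4 lower. The part of all these genes in the repair gene values was not tested. With borderline genes counted as proliferation-linked the median of that class was 0.16.

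**Figure D4:**
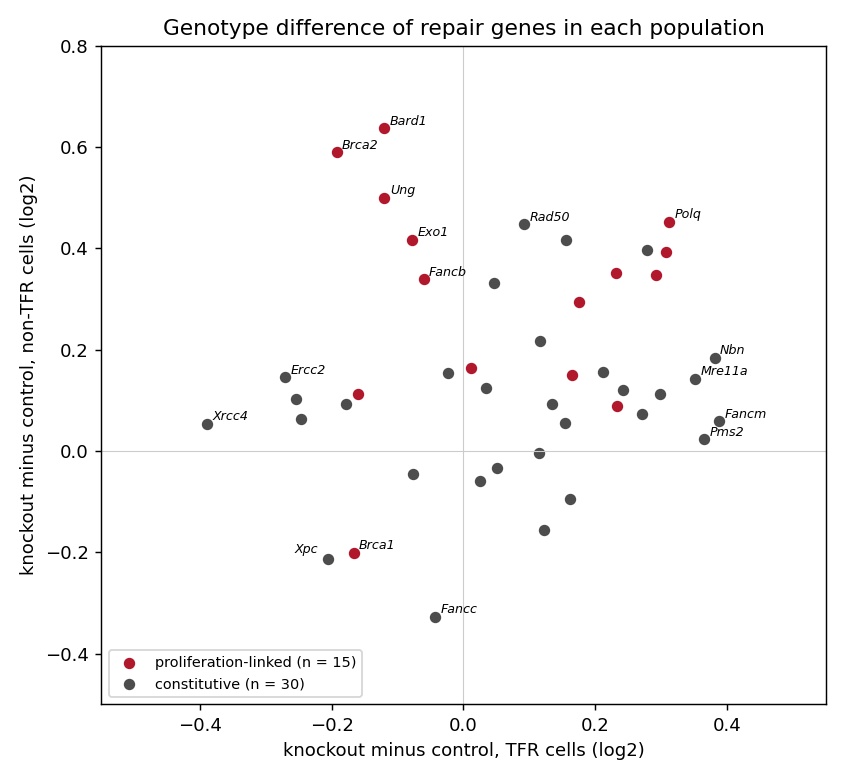
Difference between knockout and control mice (log2) of each repair gene in TFR cells (x) and non-TFR cells (y); each point is 1 gene from 1 pair of arrays per axis. The points lie between -0.39 and 0.39 on the x axis, and Bard1 (0.64), Brca2 (0.59) and Ung (0.50) stand highest on the y axis while lying below 0 on the x axis.

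The genotype differences of TFR and non-TFR cells, which share no array, were weakly correlated. Across the 45 genes r was 0.10 and rho 0.13, beside 0.23 and 0.17 over all genes. In both populations 24 genes were higher in the knockout, beside 32.0% of all genes, and 4 were lower, beside 23.5%. Those 4 were Brca1, Xpc, Xrcc1 and Fancc. For Brca2 the smaller population difference in knockout mice was made up of a control non-TFR value of 6.10 against 6.69 in the knockout and of a TFR value of 8.15 against 7.96. Ung had the same arrangement, at 6.39 and 6.89 in control and knockout non-TFR cells and at 7.42 and 7.30 in TFR cells.

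**Figure D5:**
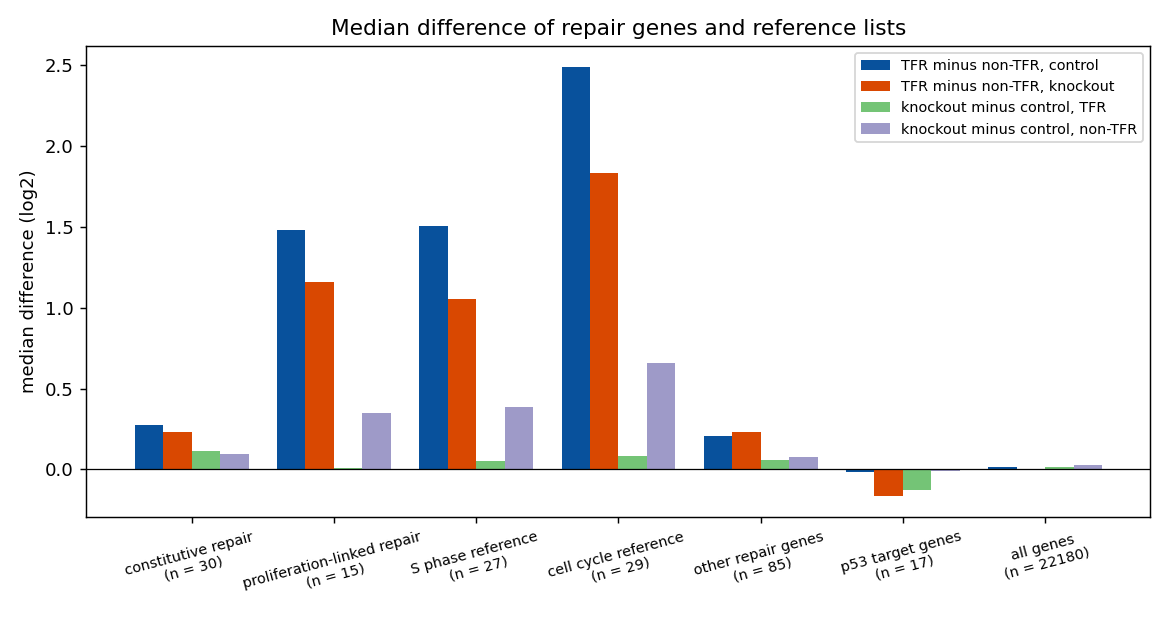
Median difference (log2) of repair gene classes and reference lists, with 1 bar for each comparison of a pair of arrays and no error because each group has 1 array. In control mice (first bar of each set) proliferation-linked repair genes (1.48) stand near the S phase list (1.51), below the cell cycle list (2.49) and above constitutive repair genes (0.28), other repair genes (0.21) and all genes (0.01).

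Because the proliferation-linked genes were higher together in TFR cells, the letters before their starts were read. RefSeq windows of GRCm38.p6 were found for 38 of the 45 genes, and the 250 bases before the start were searched on both strands for an E2F motif (TTTCCCGC, TTTGGCGC, TTTCGCGC or TTTGCCGC), for the cell cycle homology region, CHR (TTTGAA or TTCGAA), and for the CCAAT box (CCAAT). E2F factors and the DREAM complex, which bind the E2F and CHR elements, are known regulators of cell cycle genes. The E2F letters stood in 2 of 13 proliferation-linked windows (Brca2 and Bard1) and in 3 of 25 constitutive windows (Xrcc6, Chek2 and Msh3), beside 1.91% of all 27025 windows. The CHR letters stood in 2 of 13 (Bard1 and Polq) and 1 of 25 (Atr), beside 17.4%, and the CCAAT box in 6 of 13 and 11 of 25, beside 34.5%. The median GC content was 58.4% and 58.0% in the classes and 52.0% over all windows. A match is a description of letters and not a bound site. In 16 of the 38 windows no other annotated gene reached in, and of these the windows of the 3 proliferation-linked genes with the highest control difference and of the 2 constitutive genes with the smallest are shown, on the gene's strand from 5′ to 3′, with matches in capitals. They are Brca2 at chr5:150522371-150522620 (+), Chek1 at chr9:36726659-36726908 (-), Blm at chr7:80534999-80535248 (-), Ercc2 at chr7:19381767-19382016 (+) and Ercc1 at chr7:19344821-19345070 (+).
Brca2: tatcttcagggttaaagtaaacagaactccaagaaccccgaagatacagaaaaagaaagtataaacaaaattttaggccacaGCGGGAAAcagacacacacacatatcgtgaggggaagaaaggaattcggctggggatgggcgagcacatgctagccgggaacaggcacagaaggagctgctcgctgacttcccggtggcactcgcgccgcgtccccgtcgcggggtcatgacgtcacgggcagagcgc
Chek1: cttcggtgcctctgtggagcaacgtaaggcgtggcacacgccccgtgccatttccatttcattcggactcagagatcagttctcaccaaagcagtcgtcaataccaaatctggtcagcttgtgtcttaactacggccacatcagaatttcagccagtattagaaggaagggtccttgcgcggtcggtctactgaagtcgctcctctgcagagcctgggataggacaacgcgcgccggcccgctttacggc
Blm: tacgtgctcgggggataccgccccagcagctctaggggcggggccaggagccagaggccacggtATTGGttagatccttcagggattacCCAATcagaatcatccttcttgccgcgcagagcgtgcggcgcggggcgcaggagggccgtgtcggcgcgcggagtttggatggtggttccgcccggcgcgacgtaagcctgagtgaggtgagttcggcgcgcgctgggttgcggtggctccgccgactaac
Ercc2: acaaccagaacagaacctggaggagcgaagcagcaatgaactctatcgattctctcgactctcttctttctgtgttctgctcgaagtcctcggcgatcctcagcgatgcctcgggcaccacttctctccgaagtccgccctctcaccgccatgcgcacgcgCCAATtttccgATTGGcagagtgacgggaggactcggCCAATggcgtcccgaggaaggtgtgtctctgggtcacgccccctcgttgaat
Ercc1: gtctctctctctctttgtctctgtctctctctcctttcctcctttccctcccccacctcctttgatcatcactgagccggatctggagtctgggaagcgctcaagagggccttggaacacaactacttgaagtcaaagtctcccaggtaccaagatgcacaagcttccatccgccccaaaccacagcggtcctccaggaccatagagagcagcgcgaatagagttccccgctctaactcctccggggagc
In the Brca2 window the capitals are an E2F match on the opposite strand, whose first base lies 168 bases before the start. In the Blm window they are a pair of CCAAT boxes in opposite orientation, 186 and 161 bases before the start, and in the Ercc2 window 3 CCAAT boxes 89, 78 and 52 bases before it. The windows of Chek1, which was 2.89-fold higher in control TFR cells, and of Ercc1, which was nearly level, held none of these letters.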

How the data were processed

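Total RNA of 4 sorted samples, 1 per group and assigned by title, was measured on Affymetrix Mouse Gene 2.0 ST arrays. For each probe, the table deposited by the authors holds a log2 signal, a scale read from its values (2.23 to 13.8). The submitters' processing notes name MAS5; the version and settings of MAS5 were not stated. Medians of the deposited arrays spanned 0.105, and all 41345 probes were quantile normalized with limma 3.58.1 in R 4.3.3. Of them 23521 were annotated to 1 gene, 1814 to several and 16010 to none. The probe with the highest mean was kept per gene; Atr was the only member with more than 1. All 45 members matched RefSeq by Entrez identifier.

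Every comparison subtracts 1 array from another and has no test. A gene was counted as called at 2-fold. The counting was tested on simulated data. Members, classes, lists and naming rules were chosen from general knowledge with earlier results of these data known. Named with all 4 values were members 2-fold apart in any comparison and those with the largest and the smallest control population difference in each role; a few others were added after their values were seen. Alternatives were the deposited values, cyclic loess, centring on the 75th percentile, the mean of all probes, 2 filters on dim genes, 2 treatments of 9 borderline members and a 1.5-fold limit.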

Additional observations from a re-analysis of the deposited data

Results flagged for a closer look

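For 7 repair genes the knockout was at least 0.1 (log2) away from the control in opposite directions in TFR and non-TFR cells. With 1 array per group none of these differences was tested. The share of all genes meeting the same rule was not counted. The count of 7 therefore has no background beside it, and whether it is unusual cannot be told. Subtracting the TFR difference from the non-TFR difference gave 0.78 for Brca2, 0.76 for Bard1, 0.62 for Ung, 0.42 for Ercc2, 0.36 for Parp2 and 0.27 for Eme1, all lower in knockout TFR and higher in knockout non-TFR cells. It gave -0.28 for Xrcc3, which was higher in knockout TFR (0.12) and lower in knockout non-TFR cells (-0.16). Eme1 lay below the limit of 5.91 in both non-TFR arrays and in knockout TFR cells (5.83), and Bard1 lay below it in control non-TFR cells (5.36).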

How the results depend on the processing

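The labels give no replicate numbers to pair, and a model with population and genotype as additive terms was not fitted. The medians and 2-fold counts of the 4 comparisons kept their direction and size (within 1.5 times, or 0.1 for a median) under cyclic loess, 75th percentile centring and the mean of all probes. The exception in sign was the near-zero proliferation-linked median of TFR genotypes, at -0.001 with 75th percentile centring. As deposited, the median of all genes was 0.11 in the control and 0.12 in the knockout population comparison, and the constitutive median in knockout mice was 0.38 in place of 0.23; 2-fold counts were 12 in each genotype, and they included all members called after normalization. Pms2 in control mice and Bard1, Mre11a, Lig3 and Lig4 in knockout mice changed the sign of their population difference as deposited, from sizes of at most 0.09; up to 2 members per comparison, all nearer to 0, did so under cyclic loess or 75th percentile centring. Of the named members, 6 single differences moved as deposited, all under 0.41 in size. Over genes above the 75th percentile of level the proliferation-linked median was 0.33 in control and 0.27 in knockout mice, the value of Msh6 alone, and 0 members were 2-fold higher in either genotype, since none of the members called without a filter has a mean above it. The proliferation-linked median of TFR genotypes was 0.29 over that filter, and 0.16 over genes above the median level and also without borderline members. With all borderline members counted as proliferation-linked, that class had medians of 0.97 between control populations, 0.11 between TFR genotypes and 0.16 between non-TFR genotypes. At 1.5-fold, 19 members were higher in control TFR cells, 1 was lower in TFR cells of knockout mice (Xpa), and 2 were higher in knockout than in control non-TFR cells (Brca2 and Bard1). The share of all genes at 1.5-fold was not counted, so these counts have no background beside them. The lack of detection calls limits all differences from values below 5.91, which held 11 of 45 members in control non-TFR, 9 in knockout non-TFR, 2 in control TFR and 3 in knockout TFR cells.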
